A study of Mus musculus with 12 samples.

Results

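The proteasome is the large protease that degrades proteins tagged with ubiquitin. Its 20S core is a barrel of alpha and beta rings, with the protease sites on the inner face of the beta rings, and the 19S cap binds ubiquitin chains, removes them, unfolds the substrate and feeds it into the core. Activators can take the place of the cap, dedicated chaperones assemble the parts, and in cells that answer interferon the catalytic beta subunits can be exchanged for the immunoproteasome forms Psmb8, Psmb9 and Psmb10. The constitutive proteasome genes were taken here as every row of the count table whose symbol starts with Psma to Psmg followed by a digit, without those 3 immunoproteasome genes. The rule found 46 of the 17365 genes, and Psma8, the alpha subunit of the testis, was not analysed here. They comprise 31 subunits of the 26S particle (14 of the core and 17 of the cap), 5 activators or regulators, 7 assembly chaperones, Psmb11, and 2 genes that meet the rule without being subunits, Psmc3ip and Psme2b.

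The study asked how 2 quiescent states of adult mouse neural stem cells (NSCs) differ. RNA was sequenced from cultures of the subventricular zone of mice aged 6 to 8 weeks, from the lines ANS4 (MF1 mice) and BL6 (C57BL/6 mice), all kept on laminin in serum-free medium with N2 and B27. Proliferating NSCs received EGF and FGF2 (EGF/FGF), d-qNSCs received BMP4 (BMP), and p-qNSCs received BMP4 with FGF2 (BMP/FGF), each factor at 10 ng/ml and the quiescent treatments for 3 days. Each condition held 4 libraries, 2 of each line, and each line is a single culture line, so that p-values measure the spread between these libraries, which may be partly technical. These are cultures outside the niche, with no other cell type supplied. Library totals ran from 18069052 to 19451818 counts, of which the 46 genes held 0.531 to 0.545% in EGF/FGF, 0.366 to 0.398% in BMP and, for BMP/FGF, 0.412 to 0.431%. Levels are given as CPM, counts scaled to a common library size with TMM factors, and are therefore relative to the rest of each library. In these bulk samples, fewer cells of a type and less RNA per cell cannot be told apart.

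Of the listed neural stem cell markers, 10 of 10 passed the filter on low counts, with summed levels of 8305 to 9016 CPM in EGF/FGF, 10685 to 11800.3 in BMP and, for BMP/FGF, 13655 to 14092. Of 6 neuroblast markers, 5 passed, and their sum was 204 to 228 CPM in EGF/FGF, 664 to 1239.5 in BMP and, for BMP/FGF, 286 to 316, with Dcx up to 396 CPM and Stmn2 at most 0.625. Of 5 oligodendrocyte markers, 3 passed, with sums of 25.4 to 29.7, 155 to 182 and 256 to 266 CPM, while Mog did not exceed 0.261. Of 12 microglial markers, 3 passed, with sums of 54.7 to 66.2, 56.0 to 67.9 and 76.8 to 84.5 CPM, while Cx3cr1, Csf1r and Tmem119 did not exceed 0.516. Endothelial markers summed to at most 4.26 CPM and those of pericytes and fibroblasts to at most 2.98. The part of these shifts in the results that follow was not tested. The 2 BL6 BMP libraries differed from each other more than any other pair of replicates did (chi-square per degree of freedom 11.8, against 2.10 to 4.59 elsewhere), and the counts of called genes were also made without each of them.

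Proteasome transcripts were lower in both quiescent conditions than in proliferating NSCs, and the fall was shared by the subunits rather than by every gene of the family. In BMP against EGF/FGF, 39 of the 45 tested genes were lower (background: 38.8% of all 13312 tested genes were lower), 3 were higher (background 40.8%) and 3 did not pass the test, at FDR under 0.05 in edgeR's quasi-likelihood test. In BMP/FGF against EGF/FGF, 35 were lower (background 38.0%), 4 were higher (background 40.9%) and 6 did not pass. The median log2 fold change over the 45 genes was −0.50 in BMP and −0.37 in BMP/FGF, beside 0.02 over all tested genes in each comparison. Among the 31 subunits, 31 were lower in BMP, with log2 fold changes from −1.10 to −0.24, and 28 were lower in BMP/FGF, where Psma4, Psma6 and Psmb1 did not pass. Psmc3ip alone moved by more than 1.5 on the log2 scale, the size the study used to call a gene. The 2 comparisons share the EGF/FGF libraries, so their values are set side by side only. Leaving out any 1 library left 38 to 40 genes lower in BMP and 35 or 36 in BMP/FGF. With the ANS4 libraries alone, 39 and 34 were lower, and with the BL6 libraries alone, 37 and 33.

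**Figure D1:**
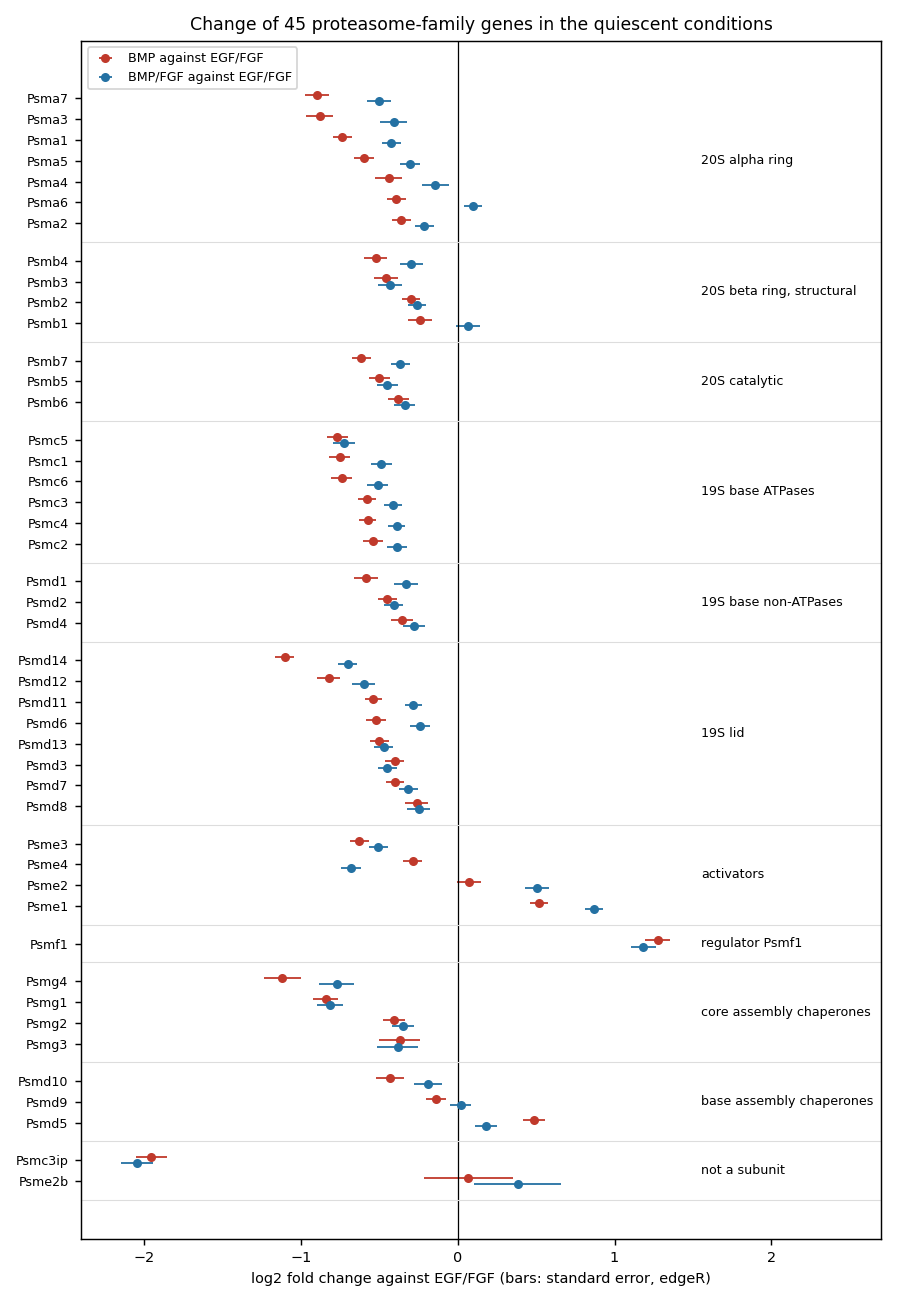
Log2 fold change of the 45 tested genes in BMP (red) and BMP/FGF (blue) against EGF/FGF, 4 libraries per condition, grouped by role, with edgeR standard errors as bars. The 31 subunits of core and cap lie at or left of −0.24 in BMP, and Psmf1 lies farthest to the right, at 1.28 and 1.18.

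The alpha ring, which forms the gate of the core, fell in 7 of 7 subunits in BMP (median −0.60, background 38.8% of all tested genes lower). In BMP/FGF 5 of 7 fell (median −0.30, background 38.0%). The largest fall of a core subunit in both comparisons was that of Psma7. In ANS4 its level was 115 and 126 CPM in the 2 EGF/FGF libraries, 62.5 and 66.4 in BMP and 87.2 and 72.2 in BMP/FGF. Where only values are listed, they are in the order EGF/FGF, BMP and BMP/FGF, with replicates 1 and 2 of the line in each. In BL6 it was 123 and 103, then 64.9 and 57.2, then 87.1 and 83.0. All EGF/FGF libraries lay above all quiescent ones, and all BMP libraries lay lowest. The log2 fold change was −0.90 (SE 0.0784; edgeR FDR = 7.25e-09) in BMP and −0.50 (SE 0.0775; FDR = 1.15e-05) in BMP/FGF. Psma3 (−0.88 and −0.41), Psma1 (−0.73 and −0.42), Psma5 (−0.60 and −0.30) and Psma2 (−0.36 and −0.21) also fell in both. Psma4 and Psma6 fell in BMP, by 0.44 and 0.39 on the log2 scale. In BMP/FGF their log2 fold changes were −0.14 (SE 0.0877, FDR = 0.145) and 0.10 (SE 0.0588, FDR = 0.131).

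Psma6 had the largest rise of a core subunit between the quiescent conditions. Its ANS4 levels were 159 and 153 CPM in EGF/FGF, 127 and 123 in BMP and 162 and 168 in BMP/FGF. In BL6 they were 147 and 155, then 115 and 103, then 162 and 165 CPM. The BMP libraries were below the other 8 without overlap, and the BMP/FGF libraries were all above the EGF/FGF ones (log2 fold change 0.10, edgeR FDR = 0.131, two-sided exact permutation test of this gene alone p = 0.0286). From BMP to BMP/FGF the log2 fold change was 0.49 (SE 0.0592, FDR = 4.76e-06).

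The structural subunits of the beta ring fell in 4 of 4 genes in BMP (background 38.8%) and in 3 of 4 in BMP/FGF (background 38.0%). Psmb4 (−0.52 in BMP, −0.30 in BMP/FGF), Psmb3 (−0.46 and −0.43) and Psmb2 (−0.30 and −0.26) fell in both comparisons. Psmb1 had the smallest fall of the 31 subunits in BMP, −0.24 (SE 0.0773, FDR = 0.00878), with overlapping libraries, and in BMP/FGF its log2 fold change was 0.07 (SE 0.0771, FDR = 0.427).

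The catalytic subunits fell in both quiescent conditions. Psmb5 carries the chymotrypsin-like site of the core, Psmb6 the caspase-like site and Psmb7 the trypsin-like site. Psmb5 stood at 58.6 and 68.0 CPM in the ANS4 EGF/FGF libraries, 42.4 and 48.2 in BMP and 45.7 and 45.6 in BMP/FGF. The BL6 values were 55.4 and 57.8, then 40.4 and 38.8, then 41.9 and 42.4 CPM. All quiescent libraries were below all proliferating ones, whereas BMP and BMP/FGF overlapped. The log2 fold change of Psmb5 was −0.50 (SE 0.0651, edgeR FDR = 1.43e-06) in BMP, −0.45 (SE 0.0650, FDR = 5.64e-06) in BMP/FGF and 0.05 (SE 0.0659, FDR = 0.564) from BMP to BMP/FGF. Psmb6 read 101 and 114, then 79.3 and 89.8, then 89.9 and 76.8 CPM in ANS4 in the same order of conditions. In BL6 it read 96.7 and 92.0, then 69.3 and 72.4, then 72.2 and 79.9 CPM. As for Psmb5, the 2 quiescent conditions overlapped and both lay below EGF/FGF. Psmb6 changed by −0.38 (SE 0.0687, FDR = 6.65e-05) in BMP and −0.34 (SE 0.0687, FDR = 0.000218) in BMP/FGF, with a difference of 0.04 (SE 0.0691, FDR = 0.673) between them. Psmb7 differed from both in that BMP and BMP/FGF did not overlap. Its ANS4 levels were 194 and 208, then 146 and 132, then 160.0 and 161 CPM, and its BL6 levels 207 and 198, then 129.7 and 121, then 148 and 159 CPM. The log2 fold changes of Psmb7 were −0.61 (SE 0.0596, FDR = 2.94e-08), −0.37 (SE 0.0593, FDR = 2.07e-05) and, from BMP to BMP/FGF, 0.25 (SE 0.0597, FDR = 0.00292). Psmb7 shares 405 exon bases (11.8% of its exons) with Nek6 on the opposite strand, and Psmb5 shares 12.1% of its exon bases with Mir686 on the same strand. The sources used here do not give the strand setting of the library.

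The immunoproteasome counterparts went the other way. Psmb8, Psmb9 and Psmb10 rose by 1.60, 1.30 and 0.40 on the log2 scale in BMP and by 2.47, 2.35 and 1.14 in BMP/FGF (highest edgeR FDR = 0.00109, that of Psmb10 in BMP). The Psmb10 libraries of EGF/FGF (17.0 to 21.8 CPM) and BMP (19.2 to 31.9 CPM) overlapped, and those of Psmb8 and Psmb9 did not. The ratio within each pair shifted. Psmb8 counts equalled 7.80 to 12.8% of Psmb5 counts in the EGF/FGF libraries, 34.0 to 54.8% in BMP and, for BMP/FGF, 72.6 to 79.9%. Psmb9 counts equalled 0.807 to 1.68%, 3.52 to 4.99% and 7.43 to 10.3% of those of Psmb6, and Psmb10 counts 8.43 to 11.2%, 14.8 to 24.1% and 26.6 to 27.5% of those of Psmb7. These are ratios of counts, not of counts per length. On the opposite strand Psmb8 shares 14.7% of its exon bases with Gm20496, and Psmb9 5.79% with Tap1. The 3 pairs gave 9 tests of the log2 ratio of CPM with 0.1 added. In each, the 4 libraries of one condition lay above all 4 of the other. The two-sided exact permutation test gave p = 0.0286 in each, the smallest p that 4 against 4 allows. Because the 9 values are equal, Benjamini-Hochberg adjustment left them unchanged and adds nothing. The test shuffled the libraries of both lines together, without line as a term, and shuffling within each line was not done. The 3 comparisons of a pair share their libraries, so the 9 tests are not independent. The log2 ratio of Psmb8 to Psmb5 was higher by 2.10 in BMP and 2.91 in BMP/FGF than in EGF/FGF, and by 0.81 in BMP/FGF than in BMP. For Psmb9 to Psmb6 the differences were 1.65, 2.66 and 1.01, and for Psmb10 to Psmb7 they were 1.01, 1.5 and 0.49. The rise of the first pair from BMP to BMP/FGF was 0.45 in ANS4 alone and 1.17 in BL6 alone.

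**Figure D2:**
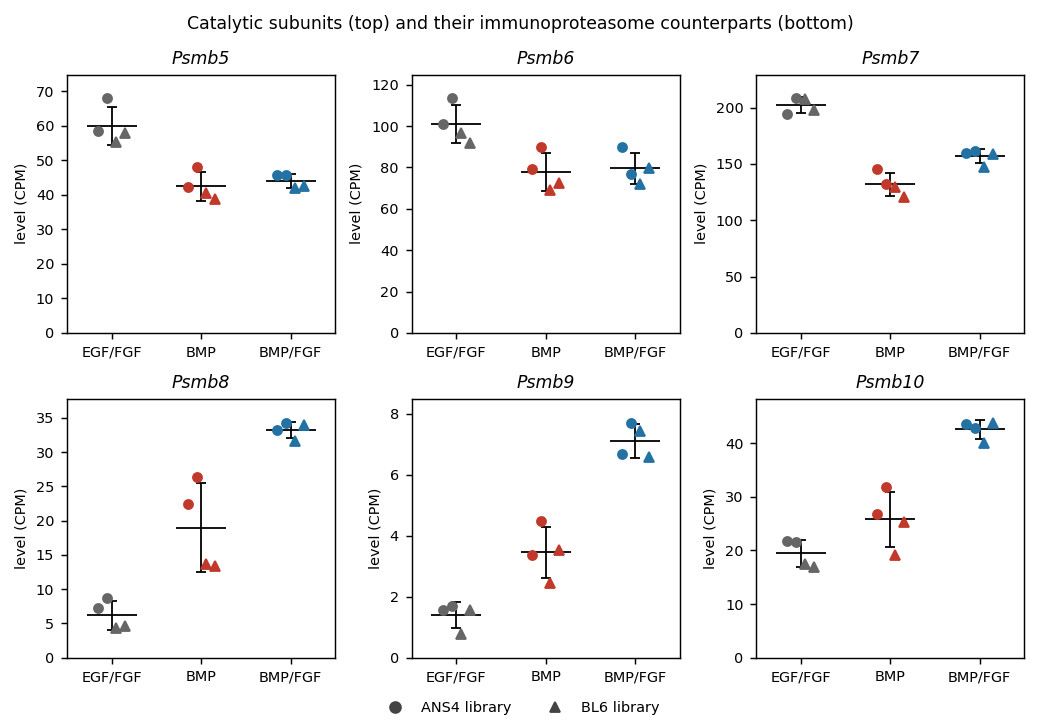
CPM of the catalytic subunits Psmb5, Psmb6 and Psmb7 (top) and their immunoproteasome counterparts Psmb8, Psmb9 and Psmb10 (bottom) in each library. Symbols are libraries (circles ANS4, triangles BL6), lines the mean and bars the SD of 4. The top row falls from EGF/FGF to both quiescent conditions, and the means of the bottom row rise from EGF/FGF through BMP to BMP/FGF. The EGF/FGF and BMP libraries of Psmb10 overlap.

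The 19S cap fell in 17 of 17 subunits in both quiescent conditions (background 38.8% in BMP and 38.0% in BMP/FGF). The median log2 fold change was −0.54 in BMP and −0.41 in BMP/FGF. The ATPases Psmc1 to Psmc6, the ring that unfolds substrates, fell by 0.54 to 0.77 in BMP and by 0.39 to 0.72 in BMP/FGF. Psmc5 had the largest fall of a cap subunit in BMP/FGF. It stood at 104 and 113 CPM in ANS4 EGF/FGF, 63.5 and 65.1 in BMP and 72.9 and 66.5 in BMP/FGF. The BL6 libraries gave 115 and 106, then 70.3 and 59.0, then 60.7 and 65.5 CPM. Its quiescent libraries overlapped each other and lay below every EGF/FGF library. Psmc5 changed by −0.77 (SE 0.0691, edgeR FDR = 1.09e-08) in BMP and −0.72 (SE 0.0691, FDR = 2.52e-08) in BMP/FGF. The base also holds the scaffolds Psmd1 (−0.58 and −0.33) and Psmd2 (−0.45 and −0.41) and the ubiquitin receptor Psmd4 (−0.35 and −0.28), and these 3 fell in both.

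The lid held the largest fall of all 31 subunits in BMP, that of Psmd14, the deubiquitinase that cuts the ubiquitin chain from the substrate. Psmd14 stood at 139 and 144 CPM in the ANS4 EGF/FGF libraries, at 67.6 and 68.2 in BMP and at 83.3 and 81.9 in BMP/FGF. In BL6 the levels were 123 and 134, then 59.1 and 56.7, then 84.2 and 81.9 CPM. The 3 conditions did not overlap, with BMP lowest in both lines. Its level was 2.15-fold lower in BMP (log2 fold change −1.10, SE 0.0605, FDR = 1.11e-11) and 1.63-fold lower in BMP/FGF (−0.70, SE 0.0598, FDR = 5.35e-09), and it rose by 0.40 (SE 0.0609, FDR = 5.31e-05) from BMP to BMP/FGF. Psmd7, its partner in the lid, fell by 0.40 and 0.32. The scaffold subunits fell from −0.26 (Psmd8) to −0.82 (Psmd12) in BMP, and from −0.24 (Psmd6) to −0.60 (Psmd12) in BMP/FGF, with Psmd3, Psmd11 and Psmd13 between.

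Summed over the 31 subunits, the level was 4447 ± 90.2 CPM in EGF/FGF, 3042 ± 202 in BMP and 3502 ± 50.5 in BMP/FGF (SD, n = 4 libraries each). The ranges of 4387 to 4579.9, 2788 to 3209 and 3454 to 3558 CPM did not overlap. The core summed to 1816, 1262 and 1526 CPM and the cap to 2631, 1779.8 and 1976 CPM. Of the parts plotted, the alpha ring, the ATPases and the lid kept BMP and BMP/FGF apart. The lid did so narrowly, with BMP at most 728 CPM and BMP/FGF at least 733. The sums of the structural beta subunits and of the catalytic subunits overlapped between the quiescent conditions. So did those of the base subunits other than ATPases, which were not plotted (BMP up to 594 CPM, BMP/FGF from 587).

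**Figure D3:**
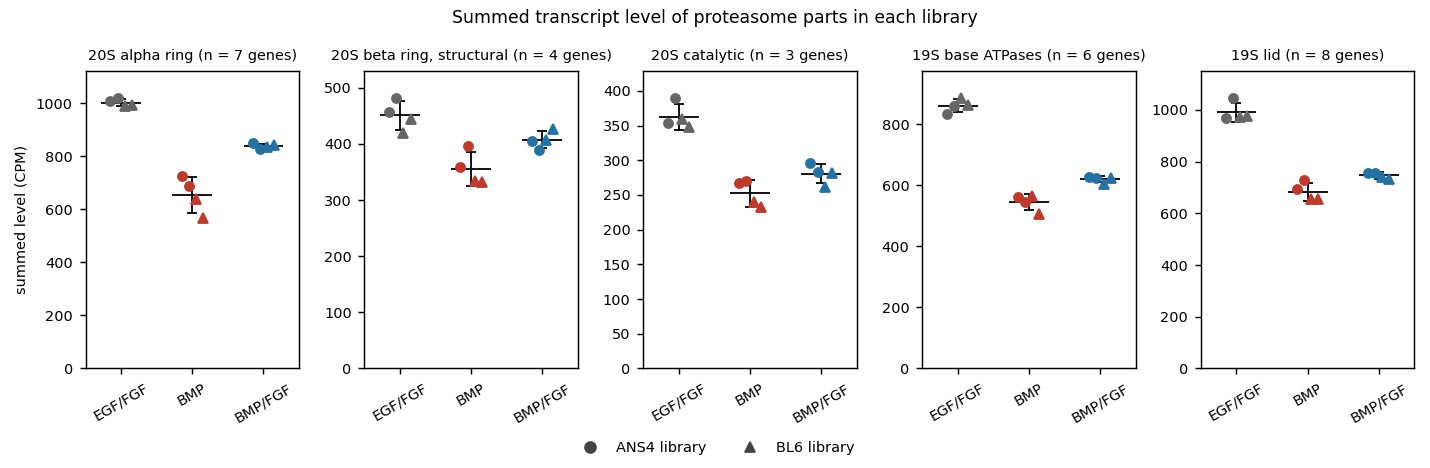
Summed CPM of 5 parts of the proteasome in each library, with the mean (line) and SD (bar) of 4 libraries per condition; circles are ANS4, triangles BL6. In each panel the EGF/FGF libraries lie above all BMP and all BMP/FGF libraries, except in the structural beta ring, where BMP/FGF reaches 426 CPM and EGF/FGF starts at 420.03.

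Because the subunits moved together, their promoters were searched for 3 short motifs on both strands. The windows ran from 250 bases before to 50 bases after each annotated start site (RefSeq, GRCm38.p6), and a gene can have more than 1. Promoters were given for 25 of the 31 subunits (27 windows) and for 39 of the 46 genes (42 windows). CCGGAAG, the core recognised by ETS factors, was present in 10 of 25 subunit genes (40.0%), in 19.5% of the tested genes with a promoter and in 9.93% of all genes with one. The median log2 fold change in BMP was −0.53 over the 10 genes that hold it and −0.57 over the 15 that do not, and in BMP/FGF it was −0.40 and −0.39. CCAAT was present in 10 of 25 (40.0%), beside 43.3% of the tested genes and 41.1% of all genes. Its medians with and without the motif were −0.64 and −0.52 in BMP, and −0.42 and −0.34 in BMP/FGF. TGACNNNGC, the core of the antioxidant response element bound by Nfe2l1 and Nfe2l2, was present in 4 of 25 (16.0%), beside 16.9% of the tested genes and 14.0% of all genes. The medians were −0.62 over these 4 genes and −0.54 over the other 21 in BMP, and −0.48 and −0.39 in BMP/FGF. Differences between genes with and without a motif were not tested. A match is a description of the letters in the window and was not tested as a binding site. The 8 subunit genes with CCGGAAG within 45 bases before an annotated start site are shown so that the motif can be seen in its surroundings. For Psma6, Psmc2 and Psmd13 this start lies farthest downstream of the GENCODE gene start (chr12:55384222, chr5:21785283 and chr7:140881968). Psmd4 and Psmc6 held it farther upstream, at 125 and 100 bases, and the further matches of Psma6 and Psmc2 are not printed. Each line gives 10 bases on either side of the motif, 5′ to 3′ on the strand that reads CCGGAAG, with the motif in capitals:
Psma6 (chr12:55398813-55398839, plus strand): cgccggtgctCCGGAAGcagtagccat
Psmc1 (chr12:100110164-100110190, minus strand): atcgccaccgCCGGAAGtgcatccacc
Psmc2 (chr5:21786713-21786739, minus strand): ctcttccccaCCGGAAGtagctccgcg
Psmd11 (chr11:80428594-80428620, minus strand): aaacacacacCCGGAAGacccgccctc
Psmd12 (chr11:107479501-107479527, minus strand): gtcactcgcaCCGGAAGtcgcccgctc
Psmd13 (chr7:140882378-140882404, plus strand): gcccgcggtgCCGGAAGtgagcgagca
Psmd2 (chr16:20651616-20651642, minus strand): gtcctccagaCCGGAAGcgccctgcgg
Psmd6 (chr14:14120974-14121000, minus strand): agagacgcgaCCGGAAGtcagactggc
The catalytic genes Psmb5 and Psmb6 held TGACNNNGC within 47 bases of the start site, shown in the same way with the motif in capitals:
Psmb5 (chr14:54618024-54618052, minus strand): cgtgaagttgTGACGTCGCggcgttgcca
Psmb6 (chr11:70525338-70525366, plus strand): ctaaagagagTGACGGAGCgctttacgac
Psmb6 and Psmb5 fell by 0.38 and 0.50 in BMP, inside the range of the 21 subunit genes without TGACNNNGC (−1.10 to −0.26). Psmd12 and Psmc6 held this motif farther upstream, at 247 and 227 bases, and the log2 fold changes of all 4 genes with it ran from −0.82 to −0.38.

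The activators and regulators split. Psme1 and Psme2, the subunits of the interferon-inducible 11S activator, were higher in BMP/FGF, Psme3 and Psme4 were lower in both quiescent conditions, and Psmf1 had the largest rise of all 45 tested genes. Psme1 stood at 38.6 and 39.6 CPM in ANS4 EGF/FGF, 56.4 and 53.7 in BMP and 71.9 and 66.1 in BMP/FGF, and at 34.6 and 34.9, then 52.4 and 49.2, then 63.8 and 68.0 in BL6. The 3 conditions did not overlap. The log2 fold change of Psme1 was 0.52 (SE 0.0600, edgeR FDR = 3.09e-07) in BMP, 0.87 (SE 0.0597, FDR = 2.71e-10) in BMP/FGF and 0.35 (SE 0.0586, FDR = 0.000138) between them. Psme2 read 58.4 and 59.9, then 68.7 and 61.2, then 77.1 and 76.6 CPM in ANS4 and 50.9 and 47.8, then 51.8 and 47.1, then 73.2 and 79.7 CPM in BL6. Here EGF/FGF and BMP overlapped, and all BMP/FGF libraries were above both. Psme2 changed by 0.07 (SE 0.0772, FDR = 0.400) in BMP and 0.51 (SE 0.0767, FDR = 9.15e-06) in BMP/FGF, a difference of 0.44 (SE 0.0766, FDR = 0.000225). Psme2 has the near-identical copy Psme2b, with which it can share reads.

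Psme3 encodes the nuclear activator PA28 gamma. Its levels were 461 and 411 CPM in ANS4 EGF/FGF, 302 and 268 in BMP and 301 and 312 in BMP/FGF. The BL6 levels were 428 and 436, then 263 and 292, then 312 and 298 CPM. All quiescent libraries lay below EGF/FGF, and the 2 quiescent conditions overlapped. Psme3 changed by −0.63 (SE 0.0610, FDR = 3.13e-08) in BMP and −0.51 (SE 0.0609, FDR = 5.67e-07) in BMP/FGF, with 0.12 (SE 0.0609, FDR = 0.123) between them. Psme4, the activator PA200, read 137 and 130.3, then 104 and 98.0, then 77.7 and 82.5 CPM in ANS4 and 132 and 144, then 128 and 117, then 88.5 and 91.5 CPM in BL6. Psme4 was lowest in BMP/FGF, and the 3 conditions did not overlap. It changed by −0.29 (SE 0.0627, FDR = 0.000413) in BMP, −0.68 (SE 0.0633, FDR = 1.92e-08) in BMP/FGF and −0.39 (SE 0.0635, FDR = 0.000108) between them.

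Psmf1 encodes PI31, first described as an inhibitor of the core. It stood at 26.7 and 30.4 CPM in ANS4 EGF/FGF, 71.6 and 72.4 in BMP and 69.1 and 61.8 in BMP/FGF. In BL6 it stood at 31.0 and 27.1, then 60.4 and 74.8, then 63.2 and 67.8 CPM. All quiescent libraries were above all proliferating ones, and BMP and BMP/FGF overlapped. The level was 2.42-fold higher in BMP (log2 fold change 1.28, SE 0.0788, FDR = 5.73e-11) and 2.27-fold higher in BMP/FGF (1.18, SE 0.0789, FDR = 1.81e-10). From BMP to BMP/FGF it was −0.09 (SE 0.0754, FDR = 0.350).

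**Figure D4:**
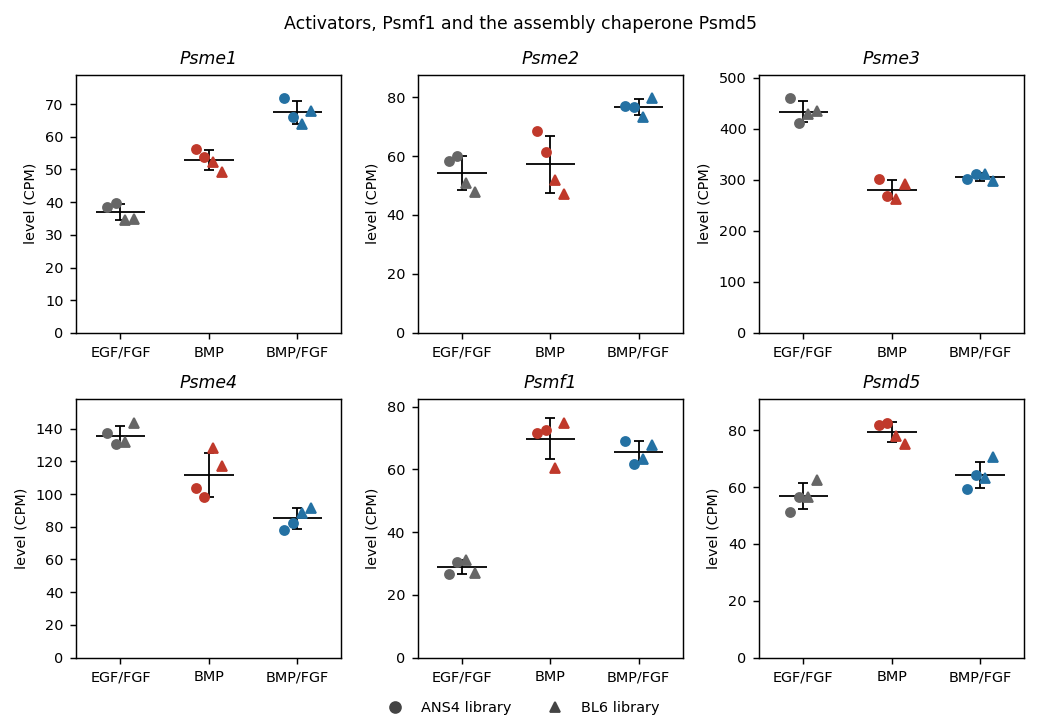
CPM of the activators Psme1 to Psme4, of Psmf1 and of the assembly chaperone Psmd5 in each library, with the mean (line) and SD (bar) of 4; circles are ANS4, triangles BL6. Psmf1 and Psme1 rise in both quiescent conditions, Psme3 and Psme4 fall in both, and Psmd5 is highest in BMP, at 75.0 to 82.6 CPM.

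The chaperones of core assembly, Psmg1 to Psmg4, fell in 4 of 4 genes in both quiescent conditions (background 38.8% in BMP and 38.0% in BMP/FGF). Those of base assembly did not move together. Psmg4 had the largest fall of a chaperone in BMP. It read 10.9 and 13.0, then 4.58 and 6.25, then 7.27 and 6.63 CPM in the ANS4 libraries of EGF/FGF, BMP and BMP/FGF, and 11.3 and 11.9, then 5.08 and 5.78, then 7.48 and 6.20 in BL6. Both quiescent conditions lay below EGF/FGF and overlapped each other. Psmg4 changed by −1.12 (SE 0.116, FDR = 7.55e-08) in BMP and −0.77 (SE 0.113, FDR = 6.38e-06) in BMP/FGF. Its rise of 0.35 (SE 0.123, FDR = 0.0314) from BMP to BMP/FGF was lost under 8 of 22 other settings, with library size only among them. Psmg1, the largest fall of a chaperone in BMP/FGF, read 24.1 and 21.4, then 11.9 and 11.5, then 12.3 and 13.0 CPM in ANS4 and 22.1 and 22.8, then 13.5 and 13.7, then 12.9 and 13.3 in BL6. Its quiescent libraries lay within 11.5 to 13.7 CPM, below all EGF/FGF libraries. The log2 fold change of Psmg1 was −0.84 (SE 0.0802, FDR = 2.34e-08) in BMP and −0.81 (SE 0.0802, FDR = 3.96e-08) in BMP/FGF. Psmg2 fell by 0.40 and 0.35, and Psmg3, at 4.47 to 8.27 CPM, by 0.37 and 0.38.

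Psmd5 binds the ATPase ring during base assembly and is not part of the finished particle. It read 51.3 and 56.6 CPM in ANS4 EGF/FGF, 82.0 and 82.6 in BMP and 59.4 and 64.2 in BMP/FGF. In BL6 it read 56.5 and 62.4, then 77.9 and 75.0, then 63.1 and 70.5 CPM. All BMP libraries lay above the other 8, while EGF/FGF and BMP/FGF overlapped. Psmd5 rose by 0.49 (SE 0.0694, FDR = 4.28e-06) in BMP and by 0.18 (SE 0.0698, FDR = 0.0251) in BMP/FGF. The latter call was lost under 6 of 22 settings, 4 of which left out 1 library (ANS4 EGF/FGF replicate 1, BL6 EGF/FGF replicate 1 or a BMP/FGF replicate 2 of either line; FDR up to 0.149). From BMP to BMP/FGF its log2 fold change was −0.31 (SE 0.0692, FDR = 0.00189), and in BL6 alone −0.19 (FDR = 0.0922). Psmd10, the base chaperone gankyrin, fell by 0.43 in BMP, and its value in BMP/FGF was −0.19 (SE 0.0893, FDR = 0.0601). Psmd9 passed in none of the 3 comparisons, with −0.14, 0.02 and 0.16 (FDR = 0.0654, 0.799 and 0.0679), and 25.5% of its exon bases overlap a noncoding gene on the opposite strand.

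The remaining 3 genes of the rule stand outside the particle described so far. Psmc3ip, a recombination factor named for its binding to Psmc3, fell the most of the 45 tested genes, with 25.8 to 32.6 CPM in the EGF/FGF libraries, 6.78 to 8.24 in those of BMP and 6.31 to 7.43 in those of BMP/FGF. The fall was 3.87-fold in BMP (log2 fold change −1.95, SE 0.10, FDR = 4.47e-12) and 4.13-fold in BMP/FGF (−2.05, SE 0.101, FDR = 2.83e-12), and 21.2% of its exon bases overlap Mlx on the opposite strand. Psme2b, at 1.09 to 4.26 CPM, passed in no comparison (FDR = 0.830, 0.210 and 0.383). Psmb11, the catalytic subunit of the thymus, was not tested. Its counts were 1 to 10 per library, and 3 counts equal 0.154 to 0.166 CPM.

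Part of the proteasome was higher with BMP4 and FGF2 than with BMP4 alone. In BMP/FGF against BMP, 22 of the 45 genes were higher (background 20.1% of all tested genes), 2 were lower (background 21.3%) and 21 did not pass, with a median log2 fold change of 0.17 beside −0.00 over all tested genes. Of the 31 subunits 18 were higher and 0 lower. Over the alpha ring 6 of 7 rose, led by Psma6 (0.49), Psma3 (0.47, SE 0.0848, FDR = 0.000277) and Psma7 (0.39, SE 0.0788, FDR = 0.000715), whereas Psma2 was at 0.15 (FDR = 0.0617). In the beta ring Psmb1 (0.31), Psmb4 (0.23) and Psmb7 rose, and Psmb2 (0.04), Psmb3 (0.02), Psmb5 and Psmb6 did not pass. In the cap, 4 of 6 ATPases rose, from 0.17 (Psmc3) to 0.26 (Psmc1), as did Psmd1 (0.25), Psmd6 (0.28), Psmd11 (0.25), Psmd12 (0.22) and Psmd14. The other 8 cap subunits lay between −0.05 (Psmd3) and 0.15 (Psmc2). Outside the particle Psme1, Psme2, Psmg4 and Psmd10 (0.24, FDR = 0.0429) were higher, and Psme4 and Psmd5 were lower. Whether the alpha ring rose more than the beta ring was not tested. The count of higher genes was 16 when libraries were scaled by their totals only, where the median of all genes was −0.05, and 18 to 22 with 1 library left out. It was 20 and 19 without either BL6 BMP replicate, 15 in ANS4 alone and 19 in BL6 alone. Of the 2 lower genes, Psmd5 did not pass in BL6 alone.

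**Figure D5:**
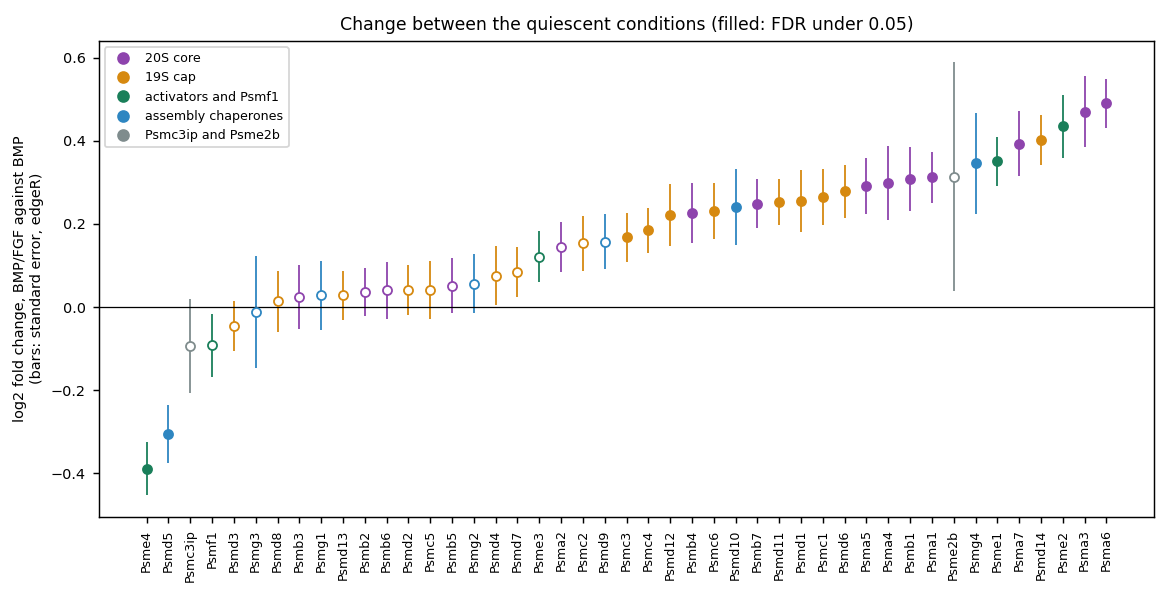
Log2 fold change from BMP to BMP/FGF of the 45 tested genes in rising order, with edgeR standard errors as bars, coloured by role, filled where FDR was under 0.05 (4 libraries per condition). Filled points on the right include 9 of 14 core and 9 of 17 cap subunits, and the 2 filled points on the left are Psme4 and Psmd5.

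The response differed between ANS4 and BL6 for few of these genes. The change from BMP to BMP/FGF differed between the lines for 3 of the 45 genes (line by condition interaction in edgeR, FDR under 0.05; background 13.5%). Psmb1 changed by 0.08 in ANS4 and 0.53 in BL6, a difference of 0.45 (SE 0.0944, FDR = 0.00479). For Psme2 the changes were 0.24 and 0.63, a difference of 0.39 (SE 0.109, FDR = 0.0257), and for Psmd1 0.10 and 0.42, a difference of 0.32 (SE 0.0914, FDR = 0.0291). From EGF/FGF to BMP the lines differed for 2 genes (background 9.02%), Psma3 at −0.67 in ANS4 and −1.10 in BL6 (difference −0.42, SE 0.115, FDR = 0.0283) and Psmd1 at −0.39 and −0.78 (difference −0.39, SE 0.0910, FDR = 0.0125). In all 5 the BMP libraries of BL6 carried the lower level. These counts rested on single libraries. The first was 11 without BL6 BMP replicate 1, 4 without BL6 BMP replicate 2, 1 without ANS4 BMP replicate 1, either ANS4 BMP/FGF replicate or BL6 BMP/FGF replicate 2, and 2 without BL6 BMP/FGF replicate 1. The second was 6 without BL6 BMP replicate 1, 2 without BL6 BMP replicate 2, 0 without ANS4 BMP replicate 1, ANS4 EGF/FGF replicate 2 or BL6 EGF/FGF replicate 2, and 1 without ANS4 EGF/FGF replicate 1.

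Other genes of the ubiquitin and proteasome pathway were taken from a list of 34 names, of which 30 were in the table and tested. In BMP against EGF/FGF 10 of the 30 were higher (background 40.8%) and 17 lower (background 38.8%), with a median of −0.27. In BMP/FGF against EGF/FGF 8 were higher (background 40.9%) and 19 lower (background 38.0%), with a median of −0.32. From BMP to BMP/FGF 5 were higher (background 20.1%) and 5 lower (background 21.3%), with a median of −0.02. Adrm1, a ubiquitin receptor of the cap, fell by 0.45 in BMP and 0.47 in BMP/FGF, and Sem1, a small lid subunit, by 0.36 and 0.40. Pomp, the maturation factor of the core, fell by 0.58 in BMP and 0.26 in BMP/FGF and rose by 0.32 from BMP to BMP/FGF. Nfe2l1, the transcription factor that raises proteasome genes when the protease is inhibited, rose by 0.41 in BMP and 0.37 in BMP/FGF. The largest changes in BMP were those of the cap-bound deubiquitinases Uchl5 (−1.38) and Usp14 (−1.12) and of Rps27a (−1.22), a ubiquitin fusion gene. In BMP/FGF they were those of Ubqln4 (−1.16), a ubiquilin shuttle, Zfand2a (1.14), a stress-induced proteasome-binding protein, and Uchl5 (−1.04). From BMP to BMP/FGF they were those of Ubqln2 (−0.45), Txnl1 (0.38), a thioredoxin-like protein of the cap, and Uchl5 (0.33). The values of this paragraph are log2 fold changes at edgeR FDR under 0.05.

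Levels of different subunits were compared per length, as CPM per kilobase of the longest coding transcript (GENCODE vM21, GRCm38). In EGF/FGF the core subunits ran from 44.7 ± 3.70 for Psma2 to 174 ± 6.03 for Psmb7 (SD, n = 4), with Psma6 at 147 ± 4.67, Psmb6 at 126 ± 11.6 and Psmb5 at 66.7 ± 6.19. Of these, the libraries of Psma6 and Psmb6 overlapped. In each library the highest core subunit stood 3.12 to 4.25 times above the lowest. The particle itself holds the 14 in equal number. The SD of log2 level over the core subunits was 0.466 to 0.540 in EGF/FGF, 0.518 to 0.565 in BMP and, for BMP/FGF, 0.544 to 0.576. In the cap, Psmd1 (121 ± 6.07), Psmc1 (119.8 ± 7.42) and Psmd2 (108 ± 1.94) stood highest and Psmd11 (36.5 ± 0.701) lowest. The order depends on the transcript taken as the length. With the median length of the annotated coding transcripts, Psma3 moved from 89.8 to 298 CPM per kilobase, and 8 of 14 core subunits moved by more than their SD.

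The 46 genes lie on 16 chromosomes, 10 of them on chromosome 11 and 6 each on chromosomes 2 and 14, and all 46 identifiers matched the annotation. Psme1 (chr14:55578123-55581529, plus strand) and Psme2 (chr14:55587441-55591113, minus strand) lie close together. Psmf1 lies at chr2:151715812-151744186 (minus strand) and Psmd14 at chr2:61711694-61800376 (plus strand).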

How the data were processed

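Bulk RNA-seq was made from 12 libraries with the BGISEQ-500RS low input protocol. The authors trimmed the reads with Trim Galore 0.5.0, ran kallisto 0.44.0 on the transcriptome of mm10, summarised the result per gene with Tximport and normalized with DESeq2 1.27.32. The deposited counts are estimates for each gene, given as whole numbers, and the deposited log2 values are DESeq2's regularized logarithm (rlog). Kallisto shares reads between similar transcripts by estimation, so the levels of near copies are uncertain. Library totals were 18069052 to 19451818 counts, and replicates of one line and condition differed with a chi-square per degree of freedom of 2.10 to 11.8.

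Counts were filtered with filterByExpr (13312 of 17365 genes kept), scaled by TMM and fitted over all 12 libraries with condition and line as terms in edgeR 4.0.16 (glmQLFit, glmQLFTest, two-sided, Benjamini-Hochberg over all tested genes, FDR under 0.05). The standard error is the log2 fold change divided by the square root of F. Line differences used the interaction of line and condition. Ratios were compared by exact permutation tests in scipy 1.17.1. These tests and the permutation test of Psma6 shuffled the libraries of both lines together, without line as a term. The edgeR, DESeq2, limma-trend and interaction fits were tested on simulated counts with known changes. Alternatives were scaling by size factors of DESeq2 or by totals alone, the Wald test of DESeq2 1.42.0, omission of the filter or of the line term, a block for the replicate number, a fit to the 8 libraries compared, a fit to either line, limma-trend (limma 3.58.1) on the rlog values and omission of single libraries. Ratios were recomputed with a pseudocount of 1 CPM, by totals alone, for either line and without single libraries, and levels per kilobase with the median transcript length.

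The genes, lists and motifs were chosen with earlier results of these data known. The levels of some single marker genes are not reported here. Values in every library are given for the 3 catalytic subunits, the 4 activators and, in each comparison, the largest rise and fall at FDR under 0.05 among core, cap, chaperone and regulator genes. Pathway genes are named when among the 3 largest changes, and Nfe2l1, Adrm1, Sem1 and Pomp always. Psmc3ip, Psmb11 and the further subunits are given to account for the list. Positions are from GENCODE vM21 and promoters from RefSeq, both on GRCm38, the assembly also called mm10.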

Additional observations from a re-analysis of the deposited data

Results flagged for a closer look

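Over 15 genes and 3 conditions, 45 groups of 4 libraries were examined for a library far from the others, and 1 was found, where chance gives about 1 in 20 groups. Psmb7 stood at 148 CPM in BL6 BMP/FGF replicate 1, and at 159 to 161 CPM in the other 3 BMP/FGF libraries.

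A difference between the lines, tested by the interaction in edgeR, was found for 5 changes, given as BL6 minus ANS4 on the log2 scale. From BMP to BMP/FGF these were Psmb1 (0.45), Psme2 (0.39) and Psmd1 (0.32), and from EGF/FGF to BMP they were Psma3 (−0.42) and Psmd1 (−0.39). The BL6 BMP libraries, which enter all 5, were also the replicate pair that differed most, and the part of this spread in the differences was not tested.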

How the results depend on the processing

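The numbers of higher and lower genes kept within 1.5 times under every alternative, except that from BMP to BMP/FGF 1 gene in place of 2 was lower in BL6 alone. With the replicate number as a block, 21 in place of 22 genes rose from BMP to BMP/FGF and the other counts were unchanged. The replicate numbers were not taken as pairs, since differences between replicates 1 and 2 correlated at −0.0711 to 0.0529 between conditions. The 3 genes with a line difference from BMP to BMP/FGF became 1 with library size only and 1 to 11 with 1 library left out. The 2 from EGF/FGF to BMP became 1 with no filter, 1 with only the 8 libraries and 0 to 6 with 1 library left out.

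The log2 ratio of Psmb8 to Psmb5 between BMP/FGF and EGF/FGF was 2.54 in ANS4 alone and 3.28 in BL6 alone, that between BMP/FGF and BMP 0.45 and 1.17, and that of Psmb10 to Psmb7 between BMP/FGF and EGF/FGF 1.32 and 1.68. With 1 library left out, 4 against 3 cannot give p below 0.0571, so these are values only: 1.98 to 2.22, 2.80 to 3.03 and 0.70 to 0.93 for Psmb8 to Psmb5 (BMP and BMP/FGF against EGF/FGF, then BMP/FGF against BMP), 1.43 to 1.76, 2.44 to 2.76 and 0.91 to 1.09 for Psmb9 to Psmb6, and 0.90 to 1.13, 1.44 to 1.58 and 0.37 to 0.60 for Psmb10 to Psmb7.

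Of 770 values of single named genes under alternatives, 750 kept direction and call. The sign changed 5 times, for changes that did not pass the test. Psmb6 from BMP to BMP/FGF was −0.0032 with library size only, −0.0205 in ANS4 alone and −0.0066 to 0.0944 over the libraries left out. Psme2 from EGF/FGF to BMP was −0.0141 in BL6 alone and −0.0025 to 0.129 over the libraries left out. The call was lost 15 times: for Psmg4 from BMP to BMP/FGF in 8 of 22 settings, for Psmd5 in BMP/FGF against EGF/FGF in 6, and for Psmd5 from BMP to BMP/FGF in BL6 alone (−0.19, FDR = 0.0922 in edgeR). The cause of these shifts was not tested. Psmb11 and Psme2b are limited by low counts, and levels per kilobase by the choice of transcript. The lines differ in strain of mouse and in culture, which cannot be told apart.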
